A study of Mus musculus with 59 samples.

Results

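The course of the dark phase in the medial prefrontal cortex of the mouse was examined by comparing 10 libraries taken at ZT22, late in the dark, with 10 libraries taken at ZT14, early in the dark. These 20 of the 59 libraries of the series were chosen by the zeitgeber time in their titles, and the 10 libraries of ZT18 served as a midpoint. Every gene of the deposited table was kept, 4484 in all, and 4273 of them had enough reads to be tested. The libraries held RNA of homogenate tissue, which mixes all cell types of the region, from adult wild-type C57BL/6J mice, an inbred strain, of both sexes. Each of the 3 times had 5 female and 5 male libraries, no group carried a transgene or a treatment in the labels, and the series sampled the day every 4 h. Zeitgeber time counts hours from lights on, so the hours from ZT12 to ZT24 are called dark here by convention; the hours of light are not in the labels. The titles give each library a letter for sex and a number, and these codes repeat within a time, so that the 10 libraries carry 6 different codes at ZT14, 7 at ZT18 and 7 at ZT22. Whether libraries with 1 code came from 1 mouse is not stated, so n counts libraries and the p-values rest on library-to-library spread alone.

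Mice are active mainly in the dark, and the prefrontal cortex takes part in planning and in the control of behaviour. In the molecular clock, the CLOCK and BMAL1 proteins switch on the Per and Nr1d genes through E-box sequences, and the PER and REV-ERB proteins made from them later shut the same loop down. Besides the clock, immediate early genes respond within minutes to neuronal activity, glucocorticoid-induced genes follow the daily surge of corticosterone, and chaperone genes of the endoplasmic reticulum (ER) respond to the load of newly made secretory and membrane proteins.

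The libraries of the 2 times differed in depth. The reads recovered from the table ran from 8366855 to 13325019 per library at ZT14 and from 7113143 to 9914670 at ZT22, with a ratio of medians of 0.818 (permutation test, two-sided, p = 0.00518, Benjamini-Hochberg adjusted p = 0.0386 over 14 library properties, n = 10 and 10). The 6 most abundant noncoding genes took between 61.4% and 85.5% of those reads at ZT14 and between 66.7% and 86.1% at ZT22 (permutation test, two-sided, adjusted p = 0.901). The libraries fell into 5 runs of 12 serial numbers, each with 1 library of either sex at either time, and the run was a block in the model. The run of numbers 49 to 60 stood apart on the first principal component (24.5% of the variance), with scores from 12.9 to 32.5 in its 4 libraries of ZT14 and ZT22 against -19.3 to 11.4 in the other 16. That component did not differ detectably between the times (permutation test, two-sided, adjusted p = 0.901). The permutation tests of library properties left out run and sex, so spread between runs stays in them. In homogenate tissue, fewer cells of a type and less RNA per cell cannot be told apart.

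Levels at ZT22 and ZT14 were compared gene by gene. In a linear model over all libraries (limma) with sex and run as terms, 38 of the 4273 genes (0.889%) were called at 0.05 after Benjamini-Hochberg adjustment, 24 of them higher at ZT22 (0.562%) and 14 lower (0.328%). An unadjusted p under 0.05 was found for 474 genes (11.1%), where 5% of the genes tested would be 214. The values are log2 of a scaled read count plus 1, so a difference of 1 is a 2-fold change on that scale, and it understates the change of genes with few reads. The median size of the change was 0.36 among the genes that rose and 0.39 among those that fell. Cyth4 and Xlr3b had fitted rises of 2-fold or more. The 24 became 10 without ZT14 male replicate 2, ZT22 female replicate 1 or ZT22 male replicate 4, 13 without ZT14 female replicate 4, 14 without ZT14 male replicate 1 or ZT22 female replicate 4 and 15 without ZT22 female replicate 5. The 14 became 9 without ZT14 male replicate 1 or 4, 7 without ZT14 male replicate 2 and 5 without ZT22 male replicate 4. Without serial numbers 49 to 60, the run described above, 3 higher and 0 lower genes were called. With 2 components of the residuals as covariates the counts were 231 and 177. Components taken from residuals leave the differences as they are and lower the spread, so that increase is built in and is no support for more genes. When libraries with 1 code of sex and number were allowed to correlate (estimated correlation 0.0945), 14 higher and 12 lower genes were called. With 1 mean per code and no run term, Stk4, Foxo1 and Syt17 alone were called. The clock repressor genes Per1, Nr1d1 and Nr1d2 and the AP-1 gene Junb were among the genes that fell. The ER chaperone genes Calr, Pdia6 and Pdia3, the splicing factor genes Tra2a and Srsf2 and the receptor genes Hrh3 and Htr1b were among those that rose.

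**Figure D1:**
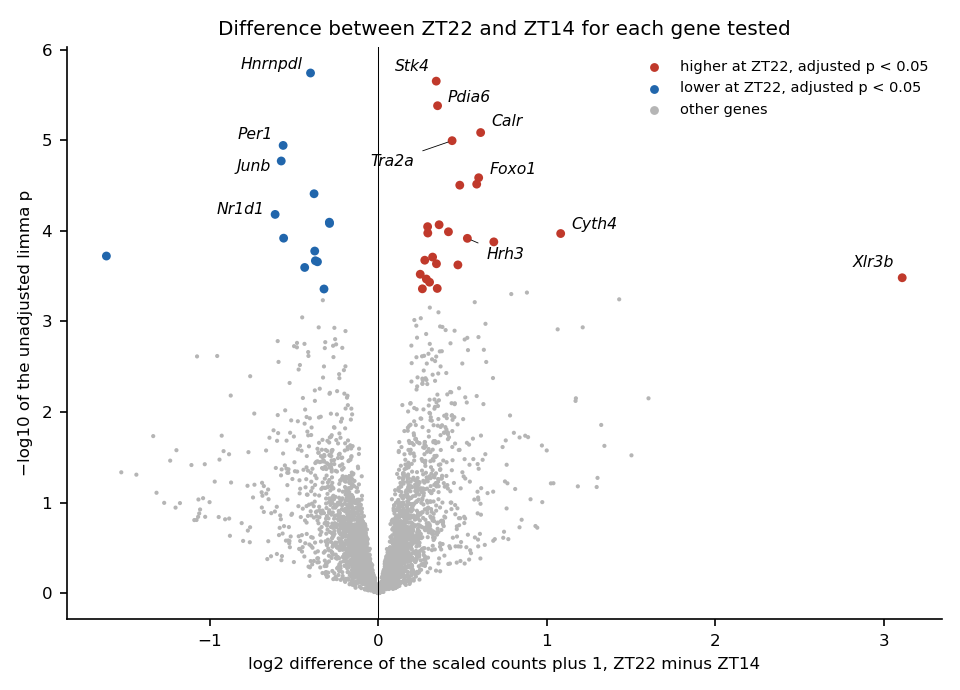
Each point is 1 of the 4273 genes tested, with the log2 difference of ZT22 minus ZT14 on the x axis and −log10 of the unadjusted limma p on the y axis. The 24 genes higher at ZT22 and the 14 lower are coloured and lie mostly within 1 log2 unit of 0, with Xlr3b at 3.11 the farthest out of those that rose.

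Small changes were often missed in simulated data with this number of libraries. In simulated data of this layout, the same model over 4273 genes recovered 31% of 100 genes changed by 0.35 and 82% of 100 genes changed by 0.7, with 5 false calls. The simulated noise was independent between genes and read depth was not simulated, so these counts need not hold for the real libraries. The part of the depth difference in the results was not tested. A scaling by library totals ended all 38 calls and moved the median difference of all genes from -0.01 to 0.07. It left 166 genes at an unadjusted p under 0.05, where 5% of the genes tested would be 214. Most reads in those totals belong to the 6 most abundant noncoding genes, so this scaling is no test of depth. The 38 genes kept their signs under that scaling.

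The first list with calls on the falling side was the core clock. Of 27 clock genes listed, 8 were in the deposited table and all 8 were tested. Per1, Nr1d1 and Nr1d2 fell and none rose, beside 0.328% called lower among all genes tested. All lists here were chosen with earlier results of these data known, so a list's calls beside such a share are a description. The 8 held 3 positive and 5 negative differences. The other 5 were not called, and the median difference of the 8 was -0.18 against -0.01 over all genes. Per1, a repressor of the clock (ENSMUSG00000020893, chromosome 11, 69095217 to 69109960, GRCm38), ran from 9.77 to 11.22 at ZT14 (median 10.41), from 9.92 to 10.56 at ZT18 (median 10.34) and from 9.54 to 10.36 at ZT22 (median 9.79). The ZT22 libraries were mostly lower, with some overlap, and in 10 of 10 pairs of the same run and sex the ZT22 library was the lower. It fell by 0.56 ± 0.12 (SE, n = 10 and 10), or 1.48-fold (adjusted p = 0.00813, limma, Benjamini-Hochberg). The estimated difference was -0.12 from ZT14 to ZT18 and -0.45 from ZT18 to ZT22. Per1 was called in neither step, and the difference between the steps was not tested.

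Nr1d1, which encodes the repressor REV-ERB alpha (ENSMUSG00000020889, chromosome 11, 98767932 to 98775333), ran from 9.60 to 10.76 at ZT14 (median 10.10) and from 8.69 to 10.03 at ZT22 (median 9.44). The times overlapped between libraries, but 10 of 10 pairs of run and sex were lower at ZT22. It fell by 0.61 ± 0.14 (SE, n = 10 and 10; adjusted p = 0.0235, limma, Benjamini-Hochberg), with a difference of -0.09 by ZT18. Its paralog Nr1d2 (REV-ERB beta; chromosome 14, 18204054 to 18239127) ran from 11.58 to 12.28 at ZT14 (median 12.03) and from 11.18 to 12.005 at ZT22 (median 11.68). Nr1d2 fell by 0.36 ± 0.09 (adjusted p = 0.0336, limma, Benjamini-Hochberg) and was lower in 9 of 10 pairs. Of the exonic bases of Nr1d1, 8.55% overlap Thra on the other strand. The kit is stranded, but the strand setting of the counting is not given in the sources used here, so reads of genes that overlap on opposite strands cannot be told apart.

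Among the clock genes not called, Per2, another repressor, had a difference of -0.27 (95% interval -0.60 to 0.06), with 0.20 up to ZT18 and -0.48 after it. Per3 (0.05, -0.18 to 0.28) and Rora, an activator (0.01, -0.20 to 0.23), had intervals that included 0. Hlf, a D-box binding activator, had 0.23 (0.08 to 0.39) and did not pass (adjusted p = 0.155, limma, Benjamini-Hochberg). The calls for Per1 and Nr1d1 held without any 1 of the 20 libraries, and that for Nr1d2 ended without any 1 of 11 (adjusted p up to 0.104). Without the run of numbers 49 to 60 the differences were -0.51 for Per1, -0.56 for Nr1d1 and -0.36 for Nr1d2, none of them called (adjusted p = 0.073, 0.179 and 0.179, limma, Benjamini-Hochberg).

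**Figure D2:**
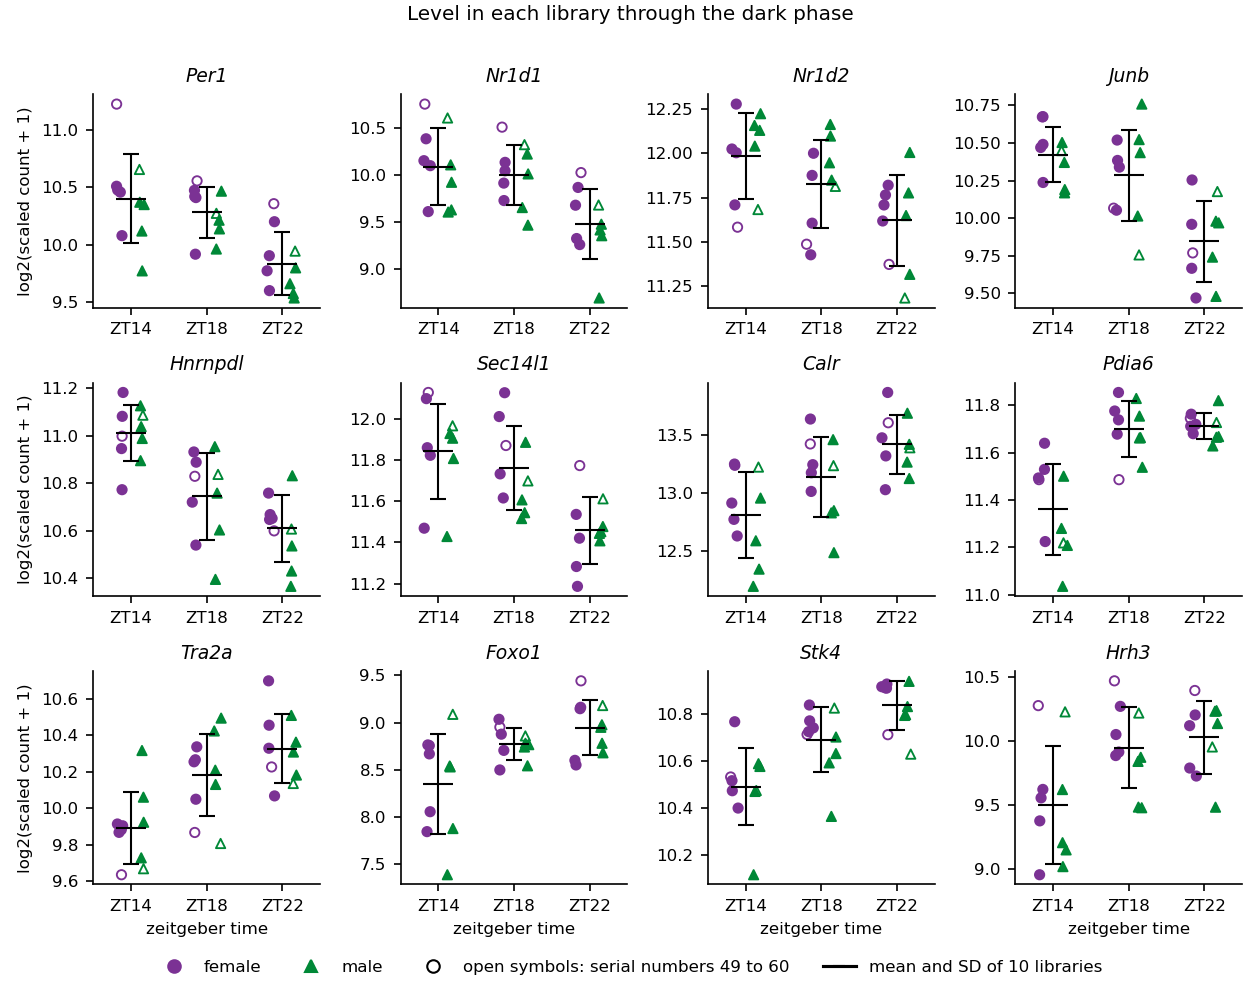
Each panel is 1 of 12 genes, with the zeitgeber time on the x axis and log2(scaled count + 1) on the y axis, 1 symbol per library (females circles, males triangles, open for serial numbers 49 to 60) and the mean and SD of 10 libraries. Per1 has medians of 10.41, 10.34 and 9.79 and Pdia6 of 11.38, 11.71 and 11.72 at ZT14, ZT18 and ZT22. The larger step between medians lies after ZT18 in Per1 and before it in Pdia6, and the steps were not tested against each other.

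The promoter of Per1 is shown because the E-box is the sequence through which the clock acts. It is the 250 bases before the first of its 2 transcription starts in RefSeq (GRCm38.p6, chr11:69098699-69098948, plus strand). Capitals mark an E-box (CACGTG, first base at -166 from the start) and a D-box (TTATGNAA, -24), each searched on both strands.
Per1: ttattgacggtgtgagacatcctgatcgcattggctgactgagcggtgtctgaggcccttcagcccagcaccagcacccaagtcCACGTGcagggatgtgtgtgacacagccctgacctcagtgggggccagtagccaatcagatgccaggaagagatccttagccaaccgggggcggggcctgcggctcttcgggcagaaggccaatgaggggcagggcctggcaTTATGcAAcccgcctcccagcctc
An E-box was found in 6.05% of 27025 RefSeq promoter windows of this length and a D-box in 3.23%. Among 3205 windows of tested genes the shares were 8.33% and 1.68%. RefSeq windows were matched for 34 of the 38 called genes, and 1 of 13 that fell and 4 of 21 that rose held an E-box. Of the 6 clock genes with a window, 1 held an E-box, Per1. The windows of Nr1d1, Nr1d2 and the second start of Per1 held no E-box and no D-box. A match is a description of the letters and not a site of binding.

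Immediate early genes had differences of both signs. Of the 17 tested, Per1 and Junb fell and none rose, beside 0.328% called lower among all genes tested. The 17 held 8 positive and 9 negative differences, with a median of -0.13. Junb, which encodes a subunit of the AP-1 transcription factor (ENSMUSG00000052837, chromosome 8, 84974484 to 84978718), ran from 10.17 to 10.68 at ZT14 (median 10.46), from 9.76 to 10.76 at ZT18 (median 10.36) and from 9.47 to 10.25 at ZT22 (median 9.86). Only the upper end of the ZT22 libraries reached the ZT14 range. It fell by 0.58 ± 0.12 (SE, n = 10 and 10; adjusted p = 0.0104, limma, Benjamini-Hochberg) and was lower in 10 of 10 pairs, and the call held without any 1 library. Without numbers 49 to 60 the difference was -0.57 (adjusted p = 0.056, limma, Benjamini-Hochberg). Prdx2 overlaps 7.52% of its exonic bases on the other strand.

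Jun, which encodes another AP-1 subunit, had a difference of the other sign. It ran from 9.82 to 10.75 at ZT14 (median 10.23) and from 10.20 to 10.96 at ZT22 (median 10.67), with a difference of 0.36 (95% interval 0.16 to 0.56) that did not pass (adjusted p = 0.0755, limma, Benjamini-Hochberg). Of the activity markers, Arc, which regulates synaptic strength, had means of 11.14 at ZT14, 11.47 at ZT18 and 10.90 at ZT22. Fos, another AP-1 gene, had means of 8.38, 8.67 and 8.24, and the transcription factor gene Egr1 of 10.70, 11.33 and 10.93. All 3 means were highest at ZT18 of these times, and none of the 3 genes was called in either step or over the phase. Ier5l (-0.45, adjusted p = 0.084, limma, Benjamini-Hochberg) and Gadd45b, a stress-response gene (-0.76, adjusted p = 0.154), did not pass either. Limma called none of 9 delayed activity-induced genes (2 at an unadjusted p under 0.05; voom 0), with 0.45 for Nptx2, a synaptic pentraxin, and 0.25 for the scaffold gene Homer1, which was higher in 10 of 10 pairs.

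Of the 6 glucocorticoid-induced genes tested, 1 fell, beside 0.328% called lower among all genes tested. It was Per1, which is also in the clock and immediate early lists. The median of the list was -0.29. Tsc22d3, which encodes the leucine zipper protein GILZ (chromosome X, 140539528 to 140600659), ran from 10.02 to 11.14 at ZT14 (median 10.60) and from 9.68 to 10.58 at ZT22 (median 10.20), and was lower in 9 of 10 pairs. Its difference of -0.48 did not pass (adjusted p = 0.107, limma, Benjamini-Hochberg). Pdk4, a kinase that slows the use of glucose in mitochondria, had 0.57, of the opposite sign (adjusted p = 0.061, limma, Benjamini-Hochberg). With voom, limma's weighting of the recovered reads, the adjusted p was 0.0382 for Pdk4 and 0.0759 for Tsc22d3.

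ER chaperone genes were a second list, with calls on the rising side. Of 64 genes listed, 17 were in the deposited table and all 17 were tested. Calr, Pdia6 and Pdia3 rose and none fell, beside 0.562% called higher among all genes tested. As for the clock list, that comparison is a description. The 17 held 12 positive and 5 negative differences, with a median of 0.05. Calr, which encodes the calcium-binding chaperone calreticulin (ENSMUSG00000003814, chromosome 8, 84841850 to 84846934), ran from 12.20 to 13.25 at ZT14 (median 12.84), from 12.49 to 13.64 at ZT18 (median 13.21) and from 13.03 to 13.87 at ZT22 (median 13.40). The lowest ZT22 library lay above the median of ZT14, and 10 of 10 pairs were higher at ZT22. It rose by 0.61 ± 0.12 (SE, n = 10 and 10), or 1.52-fold (adjusted p = 0.00813, limma, Benjamini-Hochberg), with 0.32 by ZT18 and 0.28 after it. Calr was one of 3 genes still called without the run of numbers 49 to 60, with 0.69 (adjusted p = 0.0437, limma, Benjamini-Hochberg).

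Pdia6, a disulphide isomerase of the ER (ENSMUSG00000020571, chromosome 12, 17266545 to 17284770), ran from 11.03 to 11.64 at ZT14 (median 11.38), from 11.49 to 11.85 at ZT18 (median 11.71) and from 11.63 to 11.82 at ZT22 (median 11.72). A single ZT14 library reached above the lowest ZT22 library. Pdia6 rose by 0.35 ± 0.07 (SE, n = 10 and 10; adjusted p = 0.00593, limma, Benjamini-Hochberg), with 0.34 by ZT18 and 0.01 after it, and was higher in 10 of 10 pairs. Pdia3, an isomerase that works with calreticulin on glycoproteins (chromosome 2, 121413775 to 121438687), rose by 0.26 ± 0.07 (adjusted p = 0.0494, limma, Benjamini-Hochberg) from a median of 12.10 to 12.39. That call ended without any 1 of 16 libraries (adjusted p up to 0.136) and with voom (0.069), while those of Calr and Pdia6 held in each case.

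The central chaperone of the ER, BiP, is encoded by Hspa5 (ENSMUSG00000026864, chromosome 2, 34771970 to 34777547). It ran from 12.19 to 12.91 at ZT14 (median 12.50), from 12.74 to 13.32 at ZT18 (median 12.94) and from 12.62 to 13.08 at ZT22 (median 12.79), highest in the middle of the dark. Its rise of 0.45 from ZT14 to ZT18 passed (adjusted p = 0.013, limma, Benjamini-Hochberg), whereas the difference over the whole phase, 0.31 (95% interval 0.12 to 0.49), did not (adjusted p = 0.107). Manf, a secreted ER stress factor (0.25, adjusted p = 0.084, limma, Benjamini-Hochberg), and the co-chaperone gene Dnajc3 (0.15, adjusted p = 0.438) were not called. Of the regulators of the unfolded protein response, Xbp1 had 0.06, Atf6b 0.04 and Ddit3 -0.01, none called. Limma called none of the 14 heat shock chaperone genes tested (1 at an unadjusted p under 0.05; voom 0), and their median was 0.09.

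Promoters of the ER chaperone genes are shown because 1 long element recurred in them. The ER stress response element, searched on both strands as CCAAT, then 9 bases of any kind, then CCACG, was found in 33 of 27025 RefSeq promoter windows (0.122%), in 6 of 3205 windows of tested genes (0.187%) and in 4 of 13 windows of the ER list. These 4 belong to Calr (chr8:84846932-84847181, minus strand), Pdia6 (chr12:17266339-17266588, plus strand), Hspa5 (chr2:34771840-34772089, plus strand) and Dnajc3 (chr14:118937682-118937931, plus strand), all from RefSeq GRCm38.p6. Each is the 250 bases before the start, with the matched letters in capitals. The first base of the element lies at -162 in Calr, -98 in Pdia6, -65 in Hspa5 and -105 in Dnajc3. In Calr capitals also mark an E-box at -224, and in Hspa5 an AP-1 site (TGANTCA, in 6.87% of all windows) at -182.
Calr: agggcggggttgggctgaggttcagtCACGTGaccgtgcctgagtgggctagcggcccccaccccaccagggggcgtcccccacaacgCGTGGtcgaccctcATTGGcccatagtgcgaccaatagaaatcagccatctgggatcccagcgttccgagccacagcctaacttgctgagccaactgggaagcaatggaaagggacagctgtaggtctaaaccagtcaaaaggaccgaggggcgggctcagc
Pdia6: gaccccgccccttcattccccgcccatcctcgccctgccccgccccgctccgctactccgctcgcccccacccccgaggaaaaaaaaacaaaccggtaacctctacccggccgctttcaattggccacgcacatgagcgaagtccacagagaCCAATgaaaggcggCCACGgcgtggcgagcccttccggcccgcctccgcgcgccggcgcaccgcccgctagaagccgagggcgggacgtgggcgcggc
Hspa5: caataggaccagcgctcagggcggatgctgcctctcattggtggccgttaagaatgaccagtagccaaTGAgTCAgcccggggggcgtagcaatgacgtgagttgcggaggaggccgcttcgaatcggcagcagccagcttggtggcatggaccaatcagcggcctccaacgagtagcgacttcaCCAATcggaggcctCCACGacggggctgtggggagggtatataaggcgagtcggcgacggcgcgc
Dnajc3: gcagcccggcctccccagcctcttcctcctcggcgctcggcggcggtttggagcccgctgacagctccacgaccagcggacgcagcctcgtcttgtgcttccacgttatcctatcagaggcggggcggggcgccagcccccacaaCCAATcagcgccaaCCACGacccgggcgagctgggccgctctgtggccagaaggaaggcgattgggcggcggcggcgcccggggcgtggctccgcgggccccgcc
Of these 4 genes, Calr and Pdia6 were called over the whole phase and Hspa5 and Pdia6 by ZT18, while Dnajc3 had 0.25 by ZT18 (adjusted p = 0.164, limma, Benjamini-Hochberg). Among the called genes with a window, 3 of 21 that rose held the element, the third being Xlr3b, and 0 of 13 that fell. Pdia3 and Manf did not hold these letters in this window.

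RNA-binding proteins of splicing moved in both directions. Hnrnpdl, which encodes a splicing and transport factor (ENSMUSG00000029328, chromosome 5, 100033577 to 100039664), had the smallest p of the 4273 genes. It ran from 10.77 to 11.18 at ZT14 (median 11.02), from 10.39 to 10.95 at ZT18 (median 10.79) and from 10.36 to 10.83 at ZT22 (median 10.63). A single ZT14 library lay within the ZT22 range. It fell by 0.40 ± 0.08 (SE, n = 10 and 10; adjusted p = 0.00476, limma, Benjamini-Hochberg) in 10 of 10 pairs, with -0.27 by ZT18 and -0.14 after it. The 7 other Hnrnp genes tested had differences from -0.14 (Hnrnpu) to 0.08 (Hnrnpc), and none was called by limma (0 at an unadjusted p under 0.05) or by voom.

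Among 16 Srsf, Tra2 and Rbm genes, Tra2a and Srsf2 rose and none fell (median 0.01), beside 0.562% called higher among all genes tested. Tra2a, an activator of exon inclusion (ENSMUSG00000029817, chromosome 6, 49243924 to 49264033), ran from 9.63 to 10.32 at ZT14 (median 9.89), from 9.81 to 10.49 at ZT18 (median 10.23) and from 10.07 to 10.70 at ZT22 (median 10.32). The times overlapped through 1 high library of ZT14. It rose by 0.44 ± 0.09 (SE, n = 10 and 10; adjusted p = 0.00813, limma, Benjamini-Hochberg) and was higher in 9 of 10 pairs. Srsf2, a serine- and arginine-rich splicing factor (chromosome 11, 116849901 to 116853094), rose by 0.29 ± 0.07 (adjusted p = 0.0241, limma, Benjamini-Hochberg) in 10 of 10 pairs, with 0.30 by ZT18 and -0.01 after that. Of its exonic bases 25.3% overlap Mettl23 and Mfsd11 on the other strand, and its call ended without any 1 of 5 libraries (adjusted p up to 0.0792). Without numbers 49 to 60 the differences were -0.39 for Hnrnpdl, 0.41 for Tra2a and 0.33 for Srsf2 (adjusted p = 0.0505, 0.073 and 0.0717, limma, Benjamini-Hochberg).

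Foxo1, Sox11, Msl1, Mettl16 and Rbbp5 rose as single genes. Foxo1, the transcription factor that insulin signalling holds out of the nucleus (ENSMUSG00000044167, chromosome 3, 52268336 to 52353221), ran from 7.39 to 9.09 at ZT14 (median 8.54), from 8.50 to 9.04 at ZT18 (median 8.77) and from 8.55 to 9.44 at ZT22 (median 8.96). The ZT14 libraries were spread widely and reached lowest, and 10 of 10 pairs were higher at ZT22. It rose by 0.60 ± 0.13 (SE, n = 10 and 10), or 1.51-fold (adjusted p = 0.0134, limma, Benjamini-Hochberg). Of the 15 genes of Foxo, insulin and nutrient signalling tested it was the 1 called by limma, beside 0.562% called higher among all genes tested. The list median was 0.00. Pdk4, also on this list, had 0.57 (adjusted p = 0.061, limma, Benjamini-Hochberg), and voom called 2 of the 15. The insulin receptor gene Insr had 0.00, the receptor substrate gene Irs1 -0.02, the growth factor receptor gene Igf1r 0.02 and the nutrient-sensing kinase gene Mtor -0.21.

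Sox11, a transcription factor of immature neurons (chromosome 12, 27334264 to 27342574), ran from 8.31 to 9.68 at ZT14 (median 9.18) and from 9.34 to 10.08 at ZT22 (median 9.64). Sox11 rose by 0.58 ± 0.13 (adjusted p = 0.0134, limma, Benjamini-Hochberg), in 8 of 10 pairs, and stood 0.51 above ZT14 at ZT18. Its call and that of Foxo1 held without any 1 library. Msl1, a scaffold of a histone acetyltransferase complex (chromosome 11, 98795516 to 98807859), ran from 11.31 to 11.91 at ZT14 (median 11.66) and from 11.91 to 12.15 at ZT22 (median 11.99), and was the 1 gene of all tested (0.0234%) whose libraries lay higher at ZT22 with no overlap. It rose by 0.35 ± 0.09 (adjusted p = 0.0494, limma, Benjamini-Hochberg), and the call ended without any 1 of 16 libraries (up to 0.151) and with voom (0.0586). Mettl16, an RNA methyltransferase, rose by 0.42 ± 0.10, and Rbbp5, a subunit of histone H3 lysine methyltransferase complexes, by 0.32 ± 0.08 (adjusted p = 0.0241 and 0.0334, limma, Benjamini-Hochberg). These calls ended without any 1 of 5 and of 9 libraries.

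In the lists of synaptic genes, 2 of 8 amine and related receptor genes and 1 of 30 vesicle and release genes rose. Among all genes tested 0.562% were called higher. Hrh3, the histamine receptor that restrains transmitter release (ENSMUSG00000039059, chromosome 2, 180099465 to 180104488), ran from 8.95 to 10.28 at ZT14 (median 9.46), from 9.48 to 10.47 at ZT18 (median 9.90) and from 9.48 to 10.40 at ZT22 (median 10.13). The 2 highest ZT14 libraries both carried serial numbers from 49 to 60. It rose by 0.53 ± 0.13 (SE, n = 10 and 10; adjusted p = 0.0247, limma, Benjamini-Hochberg), with 0.45 by ZT18. Without numbers 49 to 60 the rise was 0.68 and still called (adjusted p = 0.0437, limma, Benjamini-Hochberg), and within that run the difference was -0.08, the 1 called gene whose sign there was opposite. The call ended with voom (0.0626) and without any 1 of 7 libraries (up to 0.0775).

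Htr1b, a serotonin receptor of axon terminals that likewise limits release (ENSMUSG00000049511, chromosome 9, 81628291 to 81633828), ran from 8.55 to 9.25 at ZT14 (median 8.85) and from 8.78 to 9.76 at ZT22 (median 9.40). The 8 highest ZT22 libraries lay above every ZT14 library. Htr1b rose by 0.47 ± 0.12 (SE, n = 10 and 10; adjusted p = 0.0339, limma, Benjamini-Hochberg) in 9 of 10 pairs. The call ended with voom (0.0506) and without any 1 of 12 libraries (up to 0.0935). Hrh3 and Htr1b were the 2 called of 8 amine, acetylcholine, histamine, adenosine and opioid receptor genes tested (median 0.12). The serotonin receptor genes Htr1a (-0.10) and Htr3a (0.10), the adrenergic Adra1d (-0.04), Adra2c (-0.01) and Adrb3 (0.49) and the muscarinic Chrm2 (0.14) were not. Exons on the other strand cover 11.1% of the bases of Hrh3 and 18% of those of Htr1b.

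Lzts3, a scaffold of the postsynaptic density (chromosome 2, 130632839 to 130642803), rose by 0.48 ± 0.11 (adjusted p = 0.0134, limma, Benjamini-Hochberg) from a median of 11.52 to 11.95, and its call held without any 1 library. Dlg2, which encodes the scaffold PSD-93 (chromosome 7, 90476672 to 92449247), ran from 12.78 to 13.49 at ZT14 (median 13.37) and from 13.40 to 13.72 at ZT22 (median 13.56). The 6 highest ZT22 libraries lay above every ZT14 library, and Dlg2 rose by 0.29 ± 0.07 (adjusted p = 0.0241, limma, Benjamini-Hochberg) in 10 of 10 pairs. Its call ended without ZT14 female replicate 4 (0.0576), ZT14 male replicate 2 (0.0581) or ZT22 male replicate 4 (0.068). Syt17, a synaptotagmin and the 1 called of 30 synaptic vesicle and release genes (list median 0.02), rose by 0.36 ± 0.09 (adjusted p = 0.0241, limma, Benjamini-Hochberg), and its call ended without ZT22 female replicate 1 (0.0522) or ZT22 male replicate 4 (0.0554). That list also took in Rab34, Rab36, Rab33b and Rab3ip by their names. Snx27, which returns receptors from endosomes to the surface, rose by 0.28 ± 0.07 (adjusted p = 0.0336, limma, Benjamini-Hochberg), and its call ended without any 1 of 9 libraries (up to 0.0935).

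Limma called none of 37 synaptic adhesion genes, 8 ionotropic glutamate receptor genes, 4 GABA receptor genes and 32 voltage-gated ion channel genes, and neither did voom. Their medians were -0.07, -0.09, -0.14 and -0.11, and 11 of the 81 genes had an unadjusted p under 0.05. Over all genes tested 0.889% were called and 11.1% had an unadjusted p under 0.05, so the lack of calls is not read as a result. The median of the adhesion list turns positive (0.01) when scaled by library totals, which also moves the median of all genes to 0.07. The glutamate receptor list also took in Grina and the antisense gene Grin1os by their names.

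Among the other genes that rose, Stk4, the Hippo pathway kinase MST1 (ENSMUSG00000018209, chromosome 2, 164070322 to 164155524), had the smallest p. It ran from 10.12 to 10.77 at ZT14 (median 10.50), from 10.37 to 10.84 at ZT18 (median 10.72) and from 10.63 to 10.94 at ZT22 (median 10.87), and the overlap between the ends came from 1 high library of ZT14. It rose by 0.34 ± 0.07 (SE, n = 10 and 10; adjusted p = 0.00476, limma, Benjamini-Hochberg) in 10 of 10 pairs. The call held without any 1 library, and the rise was 0.39 without numbers 49 to 60 (adjusted p = 0.0172, limma, Benjamini-Hochberg). Cyth4, an exchange factor of ARF GTPases that is abundant in microglia (chromosome 15, 78597047 to 78622019), had few reads, 7 to 30 per library at ZT14 (median 20.5) and 11 to 66 at ZT22 (median 39.5). Its log2 value ran from 4.49 to 6.65 at ZT14 (median 5.95) and from 5.95 to 7.44 at ZT22 (median 6.99). Cyth4 rose by 1.08 ± 0.26 (adjusted p = 0.0241, limma, Benjamini-Hochberg), and the call ended without any 1 of 5 libraries (up to 0.075).

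The actin-binding gene Cotl1 rose by 0.34, the autophagy gene Trp53inp2 by 0.30, the glycosyltransferase gene B3galt1 by 0.28 and the replication clamp-loader gene Chtf8 by 0.25 (adjusted p = 0.0339, 0.0451, 0.0429 and 0.0403, limma, Benjamini-Hochberg). Each of these calls ended without any 1 of 9 to 15 libraries, and that of B3galt1 also with voom (0.0759). Chtf8 shares 91.8% of its exonic bases with a second annotation of the same name, so its count is uncertain. The predicted gene Gm16701 rose by 0.69 ± 0.17 (adjusted p = 0.0258, limma, Benjamini-Hochberg), a call that ended without any 1 of 5 libraries. Xlr3b, an X-linked gene of a multicopy family whose copies can share reads (chromosome X, 73192207 to 73202930), had 0 to 3 reads per library at ZT14 (median 0) and 0 to 20 at ZT22 (median 6.5). It was called (adjusted p = 0.0427, limma, Benjamini-Hochberg), but its fitted difference of 3.11 depends on the count added before the log, voom did not call it (0.0632), and the call ended without any 1 of 15 libraries. Snx27, Trp53inp2, B3galt1, Chtf8, Dlg2, Xlr3b and Gm16701 lie outside the rule for named genes and were picked with their values in view.

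The remaining genes that fell are given singly. Osbpl3, an oxysterol-binding protein that moves lipids between membranes (ENSMUSG00000029822, chromosome 6, 50293330 to 50456201), ran from 8.64 to 9.19 at ZT14 (median 8.87), from 8.42 to 8.88 at ZT18 (median 8.63) and from 7.62 to 8.60 at ZT22 (median 8.37). It was the 1 gene of all tested (0.0234%) that lay lower at ZT22 with no overlap, and with Msl1 made up the 2 (0.0468%) with none in either direction. Osbpl3 fell by 0.56 ± 0.14 (SE, n = 10 and 10; adjusted p = 0.0247, limma, Benjamini-Hochberg), and the call ended without ZT14 female replicate 4 (0.0542), ZT22 male replicate 1 (0.0512) or ZT22 male replicate 4 (0.0775).

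Sec14l1, a lipid-transfer protein (chromosome 11, 117115168 to 117159268), ran from 11.43 to 12.13 at ZT14 (median 11.88) and from 11.19 to 11.77 at ZT22 (median 11.45). It fell by 0.38 ± 0.09 (adjusted p = 0.0152, limma, Benjamini-Hochberg), with a difference of -0.08 by ZT18, and its call held without any 1 library. Cds1, a phospholipid synthesis enzyme of the ER, fell by 0.29 ± 0.07 and Ubr3, a ubiquitin ligase, by 0.29 ± 0.07 (adjusted p = 0.0241 for both, limma, Benjamini-Hochberg), in 9 of 10 pairs each, and each call ended without any 1 of 3 libraries. Flcn, a regulator of nutrient signalling at the lysosome, fell by 0.38, Tpst2, a tyrosine sulphotransferase of the Golgi, by 0.44, and Utp15, a ribosome assembly factor, by 0.37 (adjusted p = 0.0311, 0.035 and 0.0336, limma, Benjamini-Hochberg), and the calls ended without any 1 of 6, 11 and 9 libraries. Rab24, a GTPase of autophagy, fell by 0.32 (adjusted p = 0.0494, limma, Benjamini-Hochberg), but 62.4% of its exonic bases overlap Prelid1 on the other strand, and voom did not call it (0.0531). That call ended without any 1 of 17 of the 20 libraries (up to 0.127). Without numbers 49 to 60 no gene that fell was called by limma, while their differences there were 0.902 to 1.16 times those over all libraries.

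**Figure D3:**
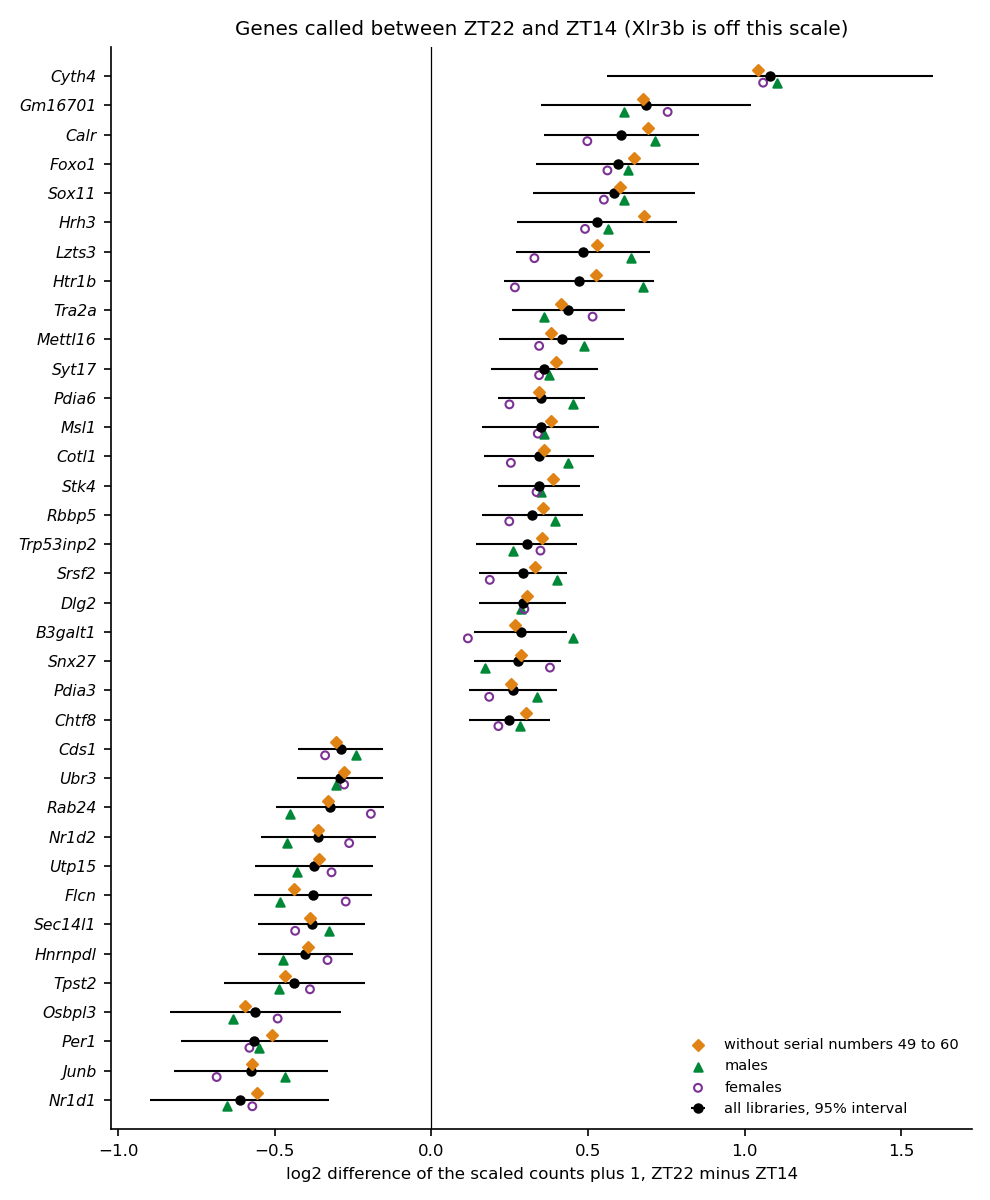
Log2 difference of ZT22 minus ZT14 (x axis) for 36 of the 38 called genes (rows), with the 95% interval over all libraries, and the differences in males, in females and without serial numbers 49 to 60. The estimates in both sexes lie on the same side of 0 for each gene, and Xlr3b (3.11) is left out because it lies off the scale.

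Large families showed no calls. Over all genes tested 0.889% were called and 11.1% had an unadjusted p under 0.05. At that share lists of these sizes would hold few calls, so their absence is not read as a result about the families. Limma called none of 31 cytosolic ribosomal protein genes (median -0.03), 31 mitochondrial ribosomal protein genes (-0.07) and 37 nuclear respiratory chain genes (-0.04), with 3 of the 99 at an unadjusted p under 0.05, and voom called none. These medians turn positive when scaled by library totals (0.05, 0.01 and 0.04), which also moves the median of all genes to 0.07. No direction is read from them. The 68 solute carriers, 83 ubiquitin and proteasome genes, zinc finger genes, 28 signalling kinases, 14 MAP kinase phosphatases and pathway inhibitors, 13 cell cycle and p53 genes and 7 neuropeptide genes held none called by limma (34 of 317 at an unadjusted p under 0.05) or by voom. Their medians ran from -0.18 for neuropeptides to 0.03 for the phosphatases.

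**Figure D4:**
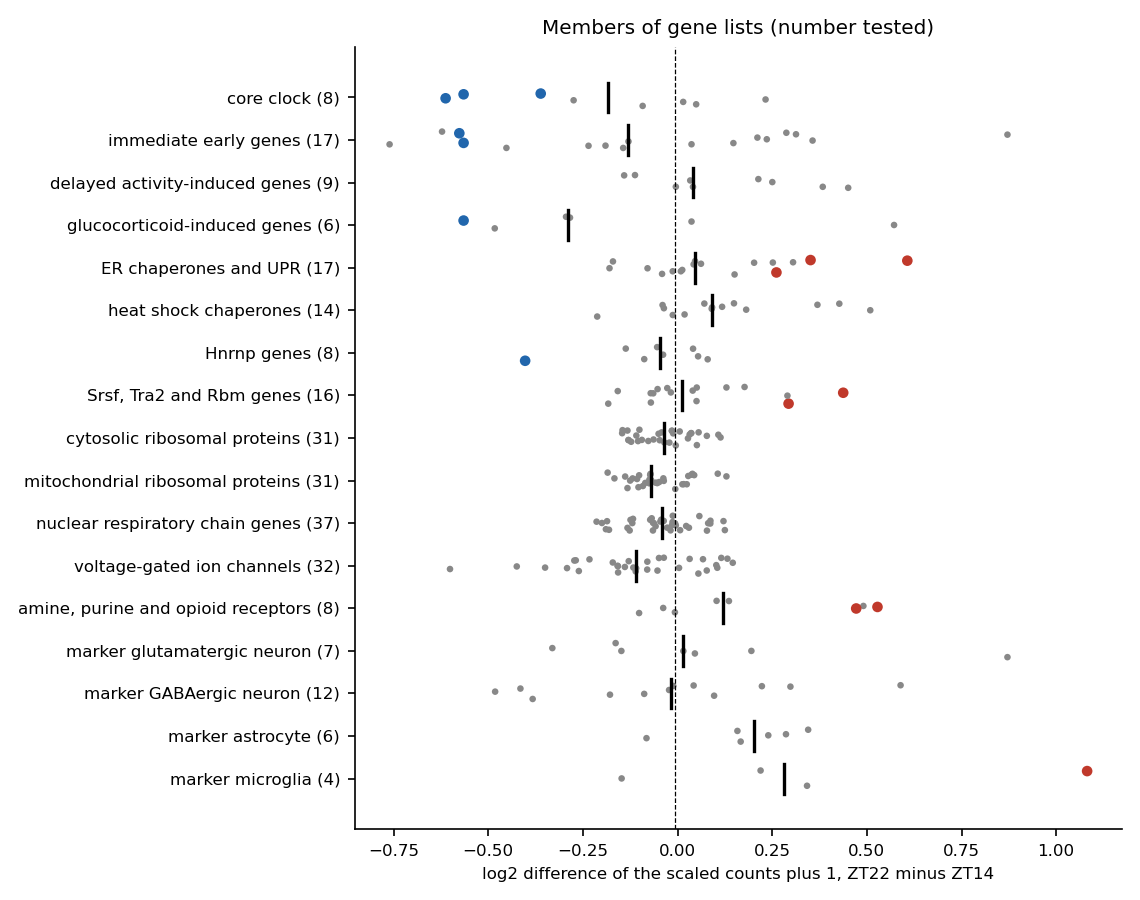
Each point is 1 tested member of a gene list (rows), with its log2 difference of ZT22 minus ZT14 on the x axis, coloured where called, and a bar at the list's median. The dashed line is the median of all genes (-0.01), near which the ribosomal and respiratory lists gather, while the clock list has its median at -0.18.

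Markers of cell types were followed because a homogenate can differ in its makeup. Limma called none of 7 glutamatergic and 12 GABAergic neuron markers (4 of 19 at an unadjusted p under 0.05; voom 0), and their summed scaled counts did not differ detectably (permutation test, two-sided, adjusted p = 0.651 and 0.436 over 14 library properties). The 6 astrocyte markers held 5 positive differences and 1 negative, that of Gfap (-0.08). The largest were those of the gap junction gene Gja1 (0.35) and the glutamate transporter gene Slc1a3 (0.29). The 6 markers had a median difference of 0.20, with none called by limma (1 at an unadjusted p under 0.05) or voom. Their sum ran from 7206 to 22807 at ZT14 and from 16990 to 22300 at ZT22 (permutation test, two-sided, adjusted p = 0.395), the ZT14 libraries reaching lower. Of the 4 microglia markers Cyth4 was the 1 called (0.562% of all genes were called higher), beside Tmem119 (0.34), P2ry12 (0.22) and Trem2 (-0.15). Their sum ran from 628 to 1659 at ZT14 and from 1193 to 1610 at ZT22 (permutation test, two-sided, adjusted p = 0.349).

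The 1 tested marker of oligodendrocyte precursors, C1ql1, ran from 1.79 to 111.7 scaled counts at ZT14 (median 54.8) and from 41.8 to 148 at ZT22 (median 93.3; permutation test, two-sided, adjusted p = 0.0386). Its limma difference of 1.21 did not pass over all genes (adjusted p = 0.0916, Benjamini-Hochberg). Lum of the meninges (-0.58) was not called. No marker of endothelial cells, choroid plexus or blood on these lists was among the genes analysed. The part of these markers in the genes that rose was not tested.

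The called genes were next placed on the whole day. ZT18 lay between the 2 ends in 23 of the 24 genes that rose and in all 14 that fell, against 31.5% of all genes tested, a share that is not like for like because called genes differ more at the ends. By ZT18 a median of 70.5% of the rise had taken place and 43.5% of the fall, given as a description, since the steps share libraries with the whole. The genes that rose were lowest of all 6 times at ZT14 in 20 cases and at ZT10 in 4, and highest at ZT22 in 21 cases. Those that fell were highest at ZT14 in 10 cases and at ZT10 in 4, and lowest at ZT22 in 8 cases, at ZT2 in 3 and at ZT6 in 3. Extremes at ZT14 and ZT22 follow in part from the choice of genes by these 2 times. Of all 2036 tested genes with a positive difference, 663 were lowest at ZT14 and 548 highest at ZT22. Of the 2237 with a negative one, 706 were highest at ZT14 and 518 lowest at ZT22, again not like for like.

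**Figure D5:**
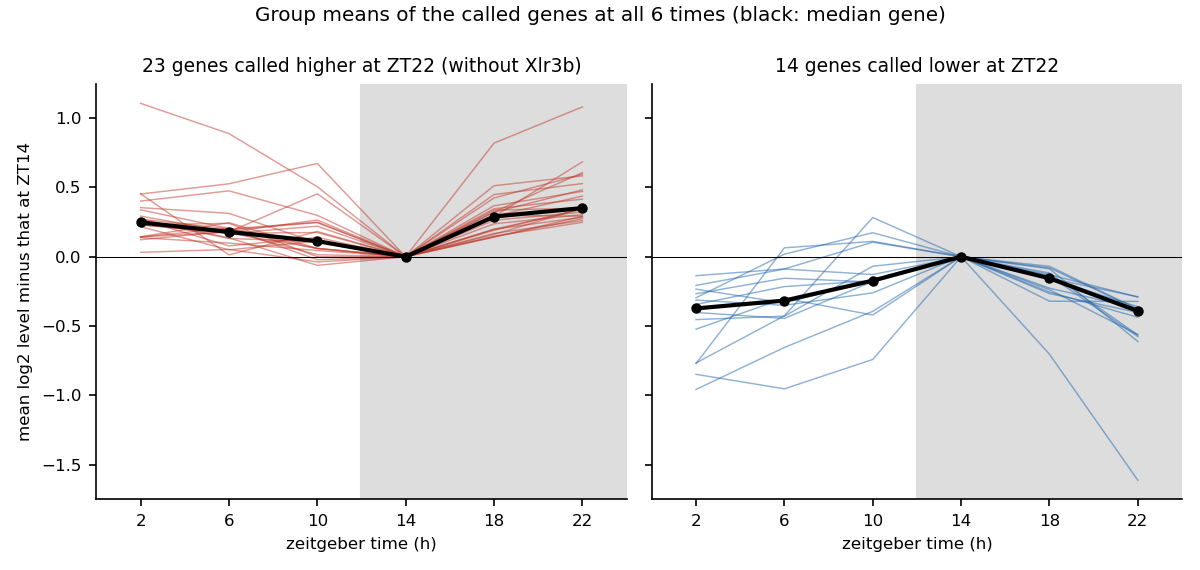
Group means of the called genes at all 6 times (x axis, zeitgeber time in hours), each minus the gene's own mean at ZT14 (y axis, log2), for 23 genes that rose (without Xlr3b) and 14 that fell, with the median gene in black and the dark phase shaded by convention. The points at ZT14 are 0 by construction, and most lines lie farthest from them at ZT22.

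The early and the late part of the phase were also tested on their own. From ZT14 to ZT18, 3 genes were called (0.0702%), all of them higher, Hspa5 (0.45), Pdia6 (0.34) and Gfod1 (0.42), an oxidoreductase-domain gene (adjusted p = 0.0127 for Gfod1, limma, Benjamini-Hochberg). Gfod1 had means of 11.13 at ZT14, 11.55 at ZT18 and 11.39 at ZT22. That count was 0 without ZT14 male replicate 2 or ZT18 female replicate 4, 1 without ZT14 male replicate 1, 5 without ZT18 male replicate 2 or 4, and 7 without ZT14 female replicate 2. From ZT18 to ZT22 limma called 0 genes and voom 0, with 286 (6.69%) and 268 at an unadjusted p under 0.05. These steps share libraries with the main comparison and are no independent support for it.

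Males and females gave differences of the same sign in all 38 called genes, which were called on both sexes together. In males alone limma called 0 genes (334 at an unadjusted p under 0.05, 7.82%) and voom 0 (275), and in females alone limma called 0 (295, or 6.9%) and voom 0 (336). The count in males was 8 without ZT22 male replicate 1 and 1 without ZT14 male replicate 3 or ZT22 male replicate 4. The median difference was 0.44 in males and 0.34 in females among the 24 genes that rose, and -0.47 and -0.36 among the 14 that fell. No difference between the sexes passed over all genes (0 by limma with 3.23% of genes at an unadjusted p under 0.05, 0 by voom). Of the 38 genes, 1 had an unadjusted p under 0.05 for it, B3galt1, with 0.45 in males and 0.12 in females. The 3 genes of smallest p for the sex difference were Elovl4, which elongates very long fatty acids (0.31 in males, -0.26 in females), the tRNA enzyme gene Dus2 (-0.61 and 0.66) and the zinc transporter gene Slc39a13 (-0.66 and 0.53). None of them passed (adjusted p = 0.752, 0.752 and 0.988 for the difference, limma, Benjamini-Hochberg).

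Agreement between runs was followed through the 10 pairs of libraries of the same run and sex. In 7 of the genes that rose and 6 of those that fell all 10 pairs had the same direction, against 16 (0.374%) and 11 (0.257%) of all genes tested. At least 9 pairs had it in 21 and 12, and at least 8 in all 24 and all 14. These counts come from the libraries that chose the genes and are given as a description. Within the run of numbers 49 to 60, 23 of 24 and 14 of 14 had the same sign, and without that run the differences were 0.909 to 1.29 times those over all libraries among the genes that rose. Calls were fewer there, with Stk4, Calr and Hrh3 the 3 of 4273 genes (0.0702%) that passed. The 12 genes called without any 1 of the 20 libraries were Stk4, Pdia6, Calr, Tra2a, Foxo1, Sox11 and Lzts3 among those that rose and Hnrnpdl, Per1, Junb, Sec14l1 and Nr1d1 among those that fell.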

How the data were processed

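RNA of mouse medial prefrontal cortex was measured by sequencing in 59 libraries. Per the labels' protocols RNA was taken up with a Qiagen column kit and libraries were made with a stranded total RNA kit. The submitters' processing notes name FastQC, HTSeq, DESeq2 and the GRCm38 build without their versions or settings, and the aligner is not given in the sources used here. The deposited table, in which 4465 of 4484 genes matched a symbol in GENCODE M21, holds log2 values, which are those of scaled counts with 1 added, as read from the values. Whole reads were recovered from the log2 steps (100% of low values whole within 0.05), and between 6317420 and 13325019 reads per library were found.

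Groups came from the titles. A gene was tested when 4 or more libraries had 10 or more of its reads, which left 4273 genes, 3934 of them protein coding. Limma 3.58.1 in R 4.3.3, with trended and robust variance, was fitted to the deposited log2 values of all 59 libraries with 6 times, sex and the run of 12 serial numbers as terms, and p-values were adjusted over all genes tested (Benjamini-Hochberg, 0.05). Library properties were compared by permutation tests with 100000 resamples and no terms for run or sex (scipy 1.17.1, Python 3.11.15). The model was tested on simulated data. Alternatives were another pseudocount, no filter, plain variance, quantile and total scaling, voom, no replicate block, fewer libraries and 2 components, and, added after seeing the data, a correlation within libraries that share a code of sex and number, and 1 mean per code.

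The text names clock genes, up to 15 called genes per direction with a mean log2 value of at least 5, up to 3 genes of smallest p per list, the called genes of each step and the 3 genes of smallest p for the sex difference. Others are given for their lists or for the sequences shown. The lists number 40, of which 30 had at least 3 genes tested and 4 had none. The members and lists were chosen with earlier results of these data known. A few genes are not reported here.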

Additional observations from a re-analysis of the deposited data

Results flagged for a closer look

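Among 41 genes, 164 groups of 5 libraries of 1 time and sex were examined for a library far from the other 4, by Dixon's ratio of gap to range (critical value 0.71). Chance gives about 1 in 20 groups, and 15 were found. The values are log2 of a scaled count plus 1.

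At ZT14, Rora was low in female replicate 4 (9.79), Tra2a in female replicate 5 (9.63), Cyth4 in male replicate 2 (4.88) and Rbbp5 in the same library (9.18). Stk4 was low in male replicate 4 (10.12) and Tpst2 in male replicate 1 (7.71). High single values at ZT14 were those of Utp15 in female replicate 2 (10.01), Snx27 in male replicate 3 (11.90), Trp53inp2 in male replicate 5 (10.83) and Xlr3b in female replicate 5 (1.33), the last against 0 in the other 4 females.

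At ZT22, Rora was low in male replicate 1 (10.17), Sox11 in female replicate 4 (9.47), Htr1b in female replicate 2 (8.78) and Stk4 in female replicate 5 (10.71). Gm16701 was high in female replicate 1 (7.68).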

How the results depend on the processing

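Of the 38 calls, 0 ended with a pseudocount of 5, 2 with plain variance, 3 without the filter, 4 with quantile normalization, 7 with voom, 23 with only the compared times in the fit and 35 without serial numbers 49 to 60, and none changed sign. The last 2 fits held fewer libraries, and the cause of these losses was not tested. The 24 higher and 14 lower calls became 8 and 7 with only the compared times, 3 and 0 without numbers 49 to 60, 0 and 0 when scaled by library totals, and 231 and 177 with 2 components as covariates. Those components were taken from residuals, so they leave the differences as they are and lower the spread. With them 699 genes were called from ZT14 to ZT18 (3 by the main design, 0 scaled by totals, 1 with only the compared times), 378 from ZT18 to ZT22, 318 in males, 190 in females and 45 for the sex difference. Quantile normalization called 2 in males. Total scaling moved the median of all genes to 0.20 for ZT18 minus ZT14 and -0.12 for ZT22 minus ZT18.

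Chosen after seeing the data, a correlation within codes of sex and number (0.0945) left 14 higher and 12 lower calls, all 26 among the 38, and 1 mean per code with no replicate block left 3 and 0, with 0 from ZT14 to ZT18. No sign changed in either. After run and group were removed, libraries with 1 code correlated at -0.326 on average (7 pairs) and others of their group at -0.231 (33 pairs).

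Leaving out 1 library at a time gave 10 to 33 higher and 5 to 17 lower calls, 0 to 7 from ZT14 to ZT18, 0 to 8 in males, and 0 to 0 in females, from ZT18 to ZT22 and for the sex difference. The noncoding share differed by -2.28 to 0.790 percentage points. The most calls ended without ZT22 male replicate 4 (24), ZT14 male replicate 2 (22) and ZT22 female replicate 1 (18).

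Without the replicate block 6 higher and 3 lower genes were called, all 9 among the 38. Deviations of libraries of the same run correlated at 0.158 on average (-0.242 to 0.566, 30 pairs) and those of other runs at -0.0392 (120 pairs), and 11 of 20 libraries were closest to their own run. The labels do not say what a run of numbers shares.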

Other observations

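As a description with no test, the 38 called genes were spread unevenly over the chromosomes. Chromosome 11 held 7 of them (18.4%) and 7.75% of the genes tested. These were Per1, Nr1d1, Msl1, Srsf2, Sec14l1, Mettl16 and Flcn, of which 3 rose and 4 fell. Chromosome 2 also held 7 (18.4%) and 8.12% of the genes tested, of which Stk4, Hrh3, Pdia3, Lzts3, Trp53inp2 and B3galt1 rose and Ubr3 fell.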
